A study of Salvia miltiorrhiza with 5 samples.

Results

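The microRNA families miR169 and miR394 were taken from the miRNA table of *Salvia miltiorrhiza* (dan shen, a medicinal herb of the mint family) by their names. Every entry whose miRNA name held miR169 or miR394, not followed by another digit, was a member. This gave 36 of the 650 entries of the table, which held 10 of its 241 distinct mature sequences. Of these, 9 sequences in 35 entries belonged to miR169 and 1 sequence in 1 entry to miR394.

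The plants were field-grown for 8 months and in flower, and their small RNA was read from 4 tissues (root, stem, leaf, flower). No treatment was named in the sources used here. A degradome library was made from 1 mixture of these tissues. Each tissue was 1 small RNA library, so no value below has an error between plants, the intervals cover counting error only, and every test compares 4 libraries. The number of plants behind a library was not stated in the sources used here. The table holds no mRNAs, so the tissue labels were not checked against marker genes.

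In plants, a miRNA guides an Argonaute protein to a complementary mRNA, which is then cut or not translated. The miR169 family is known to pair with mRNAs of NF-YA proteins, the subunit of the NF-Y complex that recognises the CCAAT box of promoters. NF-YA genes and miR169 have been tied to drought, nitrogen and phosphate responses, root nodules and flowering. In Arabidopsis, miR394 pairs with the mRNA of LEAF CURLING RESPONSIVENESS, an F-box protein (the part of an SCF ubiquitin ligase that binds the protein to be degraded), and acts in stem cell maintenance of the shoot meristem and in leaf shape.

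The 10 sequences are shown first, because the families differ in how many forms they held. They are written as DNA, 5′ to 3′, and the capitals mark the seed, bases 2 to 8. The names are those of the table, where R-1 means 1 base fewer at the 3′ end than the miRBase reference, L+2 means 2 bases more at the 5′ end, and 1ss9GA means 1 substitution, G to A at base 9. The prefixes are species codes, such as ath for Arabidopsis, bdi for Brachypodium distachyon, osa for rice, lus for flax, cca for cardoon and tcc for cacao.
ath-miR394a: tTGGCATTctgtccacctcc
lus-miR169b_R-1: tAGCCAAGgatgacttgcct
bdi-miR169d_R-1: tAGCCAAGaatgacttgcct
bdi-miR169k-5p_R-3_1ss9GA: tAGCCAAGaatgatttgcc
cca-miR169b_R-2: tAGCCAAGgatgacttgct
lus-miR169a_1ss9GA: tAGCCAAGaatgacttgccca
bdi-miR169e-5p_L+2R-1: gATAGCCAaggatgacttgcct
tcc-miR169g_L+2R-1: gATAGCCAgggatgacttgcct
osa-miR169h_L-2R+2: gCCAAGGAtgacttgcctgtg
tcc-miR169f_L-1_1ss21GC: aGCCAAGAatgacttgcctc
Of the miR169 sequences, 5 began at the canonical first base and shared the seed AGCCAAG. The other 4 began 2 bases earlier, 1 base later or 2 bases later, and so had another seed, ATAGCCA in 2 sequences, GCCAAGA in 1 and CCAAGGA in 1. No sequence of another family in the table had the seed AGCCAAG, and none outside miR394 had its seed TGGCATT.

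The miR169 forms differed little within the shared stretch. Counted from 1 at the first base of lus-miR169b_R-1, bdi-miR169d_R-1 differed from it by G9A alone. The form bdi-miR169k-5p_R-3_1ss9GA carried G9A and C14T, lus-miR169a_1ss9GA carried G9A and T20C, and tcc-miR169f_L-1_1ss21GC carried G9A. The form cca-miR169b_R-2 carried C19T and tcc-miR169g_L+2R-1 carried A7G, while bdi-miR169e-5p_L+2R-1 and osa-miR169h_L-2R+2 differed only at their ends. Base 9 was therefore A in 4 sequences and G in 5.

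The reads in the table are estimated counts. A read that matched several entries had been divided between them, and the table's legend lets the reads of an entry include forms that differ from the printed sequence at either end. Over the 4 libraries miR394 had 637 reads and miR169 had 82.8 reads, which placed them 21st and 30th of the 71 families. They held 0.0395% and 0.00513% of all miRNA reads in the table. The plot of reads per family shows both in the middle of a range of more than 6 orders of magnitude.

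**Figure D1:**
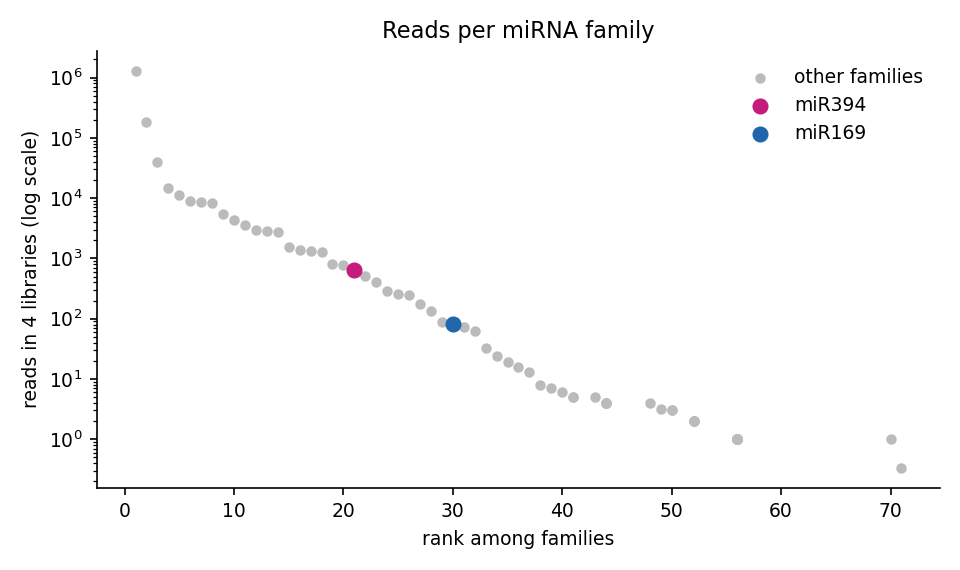
Reads of each miRNA family summed over the 4 libraries (y axis, log scale) against its rank among the 71 families (x axis). The coloured points are miR394 at rank 21 with 637 reads and miR169 at rank 30 with 82.8 reads.

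The level of miR394 was high in root and flower and low in stem and leaf. The single miR394 sequence had 335 root reads, 110 stem reads, 41 leaf reads and 151 flower reads. The reads of a library are multiplied by 1 factor in the deposited table. On this scale the normalized count of miR394 was 183 for root, 78.6 for stem, 78.0 for leaf and 213 for flower. Normalized counts are used below wherever a level is compared between libraries.

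The 95% Poisson intervals of root and flower lay above those of stem and leaf. Root lay between 164.2 and 204, and flower between 180 and 250, while stem lay between 64.6 and 94.8 and leaf between 55.9 and 106. The level in flower was 2.71 times that in stem, with an exact binomial 95% interval of 2.10 to 3.49, and 2.73 times that in leaf, with an interval of 1.92 to 3.95. The level in root was 2.33 times that in stem (1.87 to 2.92) and 2.35 times that in leaf (1.70 to 3.34). Flower and root could not be told apart, since their ratio of 1.16 had an interval of 0.951 to 1.41. The same held for stem and leaf, with a ratio of 1.01 and an interval of 0.699 to 1.48.

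**Figure D2:**
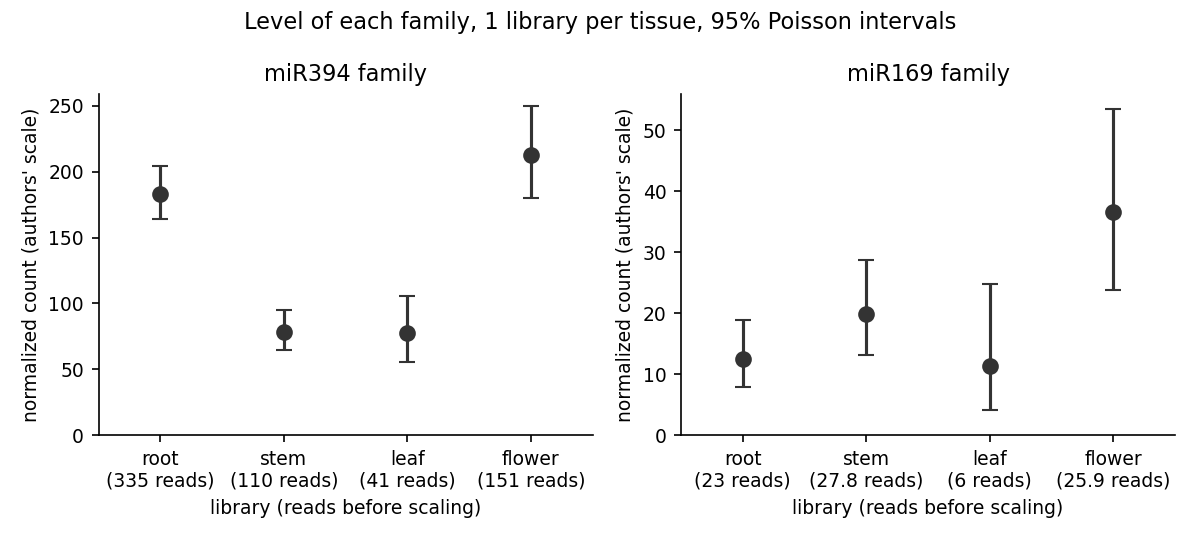
Normalized counts (y axis, from 0, on the authors' scale) of the miR394 family (left) and the miR169 family (right) in the root, stem, leaf and flower libraries, with 95% Poisson intervals as bars and the reads before scaling under each name. For miR394 root (183) and flower (213) lie above stem (78.6) and leaf (78.0), and for miR169 flower (36.5) has the highest level.

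A chi-squared test of the miR394 reads against the relative depths of the libraries gave an adjusted p of 2.59e-21, with Benjamini-Hochberg adjustment over all families and a threshold of 0.01. By this test 50.0% of all families differed between the libraries, and 91.9% of those with at least 10 reads, so passing it sets a family of this depth apart from few others. The size of the difference was modest by the authors' factors. By these the highest level of miR394 was 2.73 times its lowest. The median over the families with at least 10 reads was 3.99, and 10 of these families had a smaller ratio. Families of few reads in this median carry a larger counting error than miR394. By the other scalings the highest level of miR394 was 3.67 to 4.96 times its lowest, and these were not set against the other families.

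The place of flower beside root and stem, and that of leaf beside stem, depended on the scaling. The leaf library held 11.8% of the summed depth by the authors' factors, 21.6% by clean reads, 14.8% by the sum of miRNA reads and 17.4% by that sum without the 10 most abundant sequences. For flower these shares were 15.9%, 16.3%, 30.7% and 21.7%. Per 1000000 clean reads, miR394 was at 37.8 for root, 37.1 for flower, 16.7 for stem and 7.62 for leaf. Root and flower could not be told apart, with a ratio of 1.02 and an interval of 0.838 to 1.24, while leaf fell below stem. With clean reads the stem level was 2.19 times the leaf level, with an interval of 1.52 to 3.22. By the sum of miRNA reads root stood above all others, at 2.20 times flower (1.81 to 2.68), and flower no longer differed from stem, with a ratio of 1.06 and an interval of 0.820 to 1.36. Root above stem and above leaf held under all 4 scalings. Root was 1.74 to 2.33 times stem and 2.35 to 4.96 times leaf. Flower above leaf also held under all 4. It ran from 1.77 times (1.25 to 2.57) by the sum of miRNA reads to 4.87 times (3.43 to 7.06) by clean reads.

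**Figure D3:**
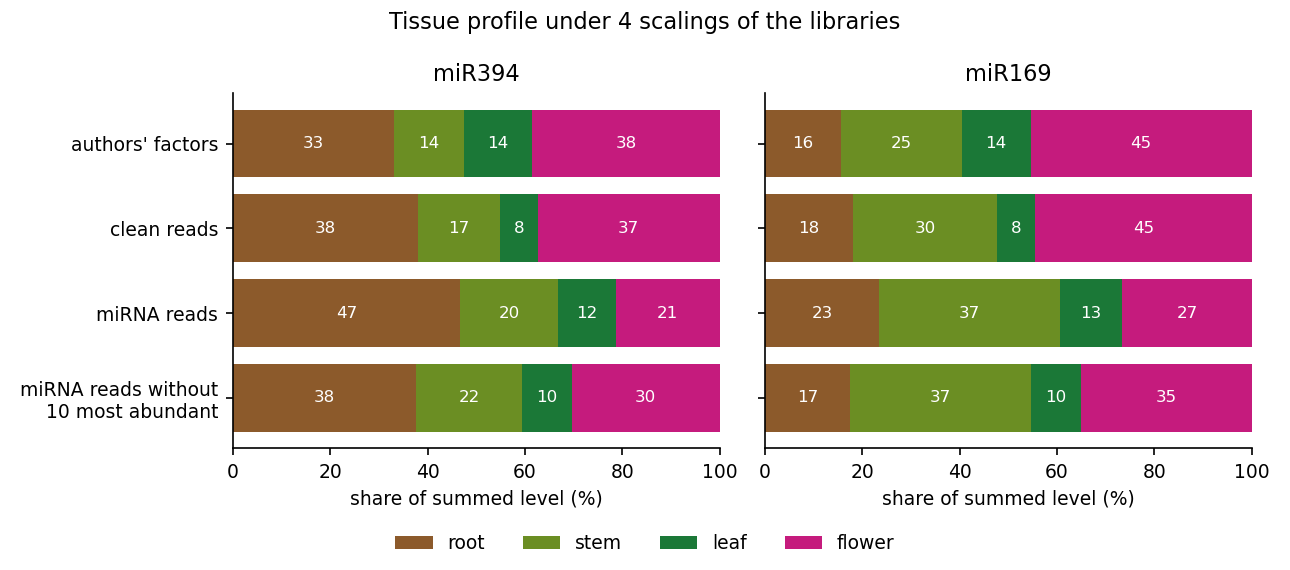
Share of the summed level (x axis, %) that each library holds for miR394 (left) and miR169 (right), with 1 stacked bar per scaling of the libraries. Root holds 33.2% to 46.7% of miR394 and flower 21.2% to 38.5%, and for miR169 the highest share is in flower by the first 2 scalings and in stem by the last 2.

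The miR394 sequence was identical to the reference of Arabidopsis. For this sequence the table lists 47 miRBase precursors of 24 species codes, which were not all searched for it. It was placed on the Arabidopsis precursor MIR394b, with a listed hairpin of 117 nt, a G+C content of 39.3% and a folding energy of −53.1 kcal/mol. The 121 nt given for that precursor are printed here to show where the mature miRNA lies, positions 14 to 33, in capitals.
ath-MIR394b: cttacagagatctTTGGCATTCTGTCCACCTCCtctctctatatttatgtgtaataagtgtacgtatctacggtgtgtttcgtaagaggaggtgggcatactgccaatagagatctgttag

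The family total of miR169 was highest in flower by the authors' factors. It had 25.9 flower reads, 27.8 stem reads, 23 root reads and 6 leaf reads, or normalized counts of 36.5, 19.9, 12.6 and 11.4. The flower level was 2.90 times the root level (1.60 to 5.34), 1.84 times the stem level (1.03 to 3.24) and 3.20 times the leaf level (1.29 to 9.54). By these factors every interval of the ratios among root, stem and leaf held 1. By the other 3 scalings stem was above leaf, at 3.79 times (1.55 to 11.3) by clean reads, 2.91 times (1.19 to 8.63) by the sum of miRNA reads and 3.65 times (1.49 to 10.9) without the 10 most abundant sequences. By the last of these root was also below stem, at 0.471 times (0.258 to 0.843). The chi-squared test gave an adjusted p of 0.00108 over all families. By the sum of miRNA reads the highest level was in stem, with an adjusted p of 0.117, so neither the difference nor the place of flower was independent of the scaling.

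The total of miR169 was made up of few forms. The sequences bdi-miR169d_R-1 and lus-miR169b_R-1 held 46.4% and 37.5% of its reads, together 83.8%. The 5 sequences with the canonical first base held 93.4%. By length, 69.6 of the 82.8 reads were of the 3 sequences of 20 nt, 7.5 of 19 nt, 4.73 of 22 nt and 0.983 of 21 nt. Another 5 sequences had under 1 read each, 1.71 reads in all.

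The 2 main forms, which differ by the 1 base at position 9, are given side by side; the difference between their distributions was not tested. The form lus-miR169b_R-1 had 18.5 flower reads, 9.5 stem reads, 3 leaf reads and 0 root reads. Its normalized count was 26.1 for flower (15.6 to 40.9), 6.79 for stem (3.18 to 12.7), 5.70 for leaf (1.18 to 16.7) and 0 for root. A count of 0 is taken to allow up to 3 reads, which is a normalized count of 1.64 for root, 2.14 for stem, 5.70 for leaf and 4.23 for flower. No read of it was listed in root, the library with the largest share of the depth (40.9% by the authors' factors). The flower level was 3.84 times the stem level (1.66 to 9.02) by these factors and 3.15 times (1.36 to 7.41) by clean reads. By the sum of miRNA reads it was 1.497 times the stem level (0.646 to 3.52), and 1.98 times (0.855 to 4.65) without the 10 most abundant sequences, so under these 2 scalings flower and stem could not be told apart. The exact multinomial test gave an adjusted p of 5.78e-10 over all sequences. The test passed under all 7 alternatives run for this sequence, with p at or below 3.60e-05. Of these, only the other scalings could change which library was highest, and flower had the highest level by each. If root had held it at the level of the other 3 libraries, 13.9 to 21.5 root reads would have been found, depending on the scaling.

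The form bdi-miR169d_R-1 was found in all 4 libraries, with 18.6 root reads, 13.8 stem reads, 3 leaf reads and 3 flower reads. Its normalized count was 10.2 for root (6.07 to 15.9), 9.89 for stem (5.38 to 16.6), 5.70 for leaf (1.18 to 16.7) and 4.23 for flower (0.872 to 12.4). All 4 intervals overlapped, and the exact multinomial test did not pass, with an adjusted p of 0.562. By the sum of miRNA reads it did pass, with an adjusted p of 0.00696 and root highest. The table holds it in 5 entries of 4 grasses, Brachypodium, rice, sorghum and maize. In the rice precursor MIR169n, of 177 nt, it lies at positions 11 to 30, shown in capitals.
osa-MIR169n: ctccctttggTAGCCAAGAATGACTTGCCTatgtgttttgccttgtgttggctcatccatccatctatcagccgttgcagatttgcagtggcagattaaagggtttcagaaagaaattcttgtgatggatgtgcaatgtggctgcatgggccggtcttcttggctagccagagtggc

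Of the 10 sequences, 7 had at least 1 read after rounding and were tested, and 2 passed, lus-miR169b_R-1 and ath-miR394a. Of all sequences tested, 35.4% passed, and 76.8% of those with at least 10 reads. In addition, bdi-miR169d_R-1 passed under 1 scaling.

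The smaller miR169 forms were too few to place. The form bdi-miR169k-5p_R-3_1ss9GA had 4 reads in root, 3 in flower and 0 in stem and leaf, and its exact multinomial test gave an adjusted p of 0.157. The form bdi-miR169e-5p_L+2R-1, which begins 2 bases early, had 4.28 reads in stem, 0.385 in flower and 0 in root and leaf, with an adjusted p of 0.109. Traces of osa-miR169h_L-2R+2 (0.538 reads) and cca-miR169b_R-2 (0.5) were listed in flower, of lus-miR169a_1ss9GA (0.444) in root, and of tcc-miR169f_L-1_1ss21GC (0.167) and tcc-miR169g_L+2R-1 (0.0625) in stem. None of these shares of a read places a form in a tissue.

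Summed by base 9, a grouping made after the reads had been seen and given without a test, the root held forms with A only. The 4 forms with A had 23 root reads, 14 stem reads, 3 leaf reads and 6 flower reads, with normalized counts of 12.6, 10.01, 5.70 and 8.45. By the authors' factors, every ratio between libraries of these forms had an interval that held 1. This was not so by the other scalings. Root was 4.65 times leaf (1.41 to 24.2) by clean reads, 3.66 times (1.10 to 19.0) by the sum of miRNA reads and 3.44 times (1.04 to 17.9) without the 10 most abundant sequences. By the sum of miRNA reads root was also 3.798 times flower (1.503 to 11.4) and stem 3.04 times flower (1.10 to 9.64). Stem was above leaf by clean reads, at 3.81 times (1.06 to 20.7), and without the 10 most abundant sequences, at 3.68 times (1.03 to 19.9). The 5 forms with G had 0 root reads, 13.8 stem reads, 3 leaf reads and 19.9 flower reads, with normalized counts of 0, 9.89, 5.70 and 28.1. The flower level of the forms with G was 17.1 times a floor of 3 reads in the root library by the authors' factors. By the sum of miRNA reads it was 6.70 times this floor, the lowest of the 4 scalings. The stem level was 6.03 times the floor by the authors' factors, the lowest of the 4. These ratios leave out the counting error of flower and stem. With the counting error of both libraries, the exact binomial lower limits by the authors' factors were 12.7 for flower over root and 4.33 for stem over root. By the sum of miRNA reads the limit for flower over root was 4.98, the lowest of the 4 scalings. For leaf over root, with 3 leaf reads, the limit was 1.44 by the authors' factors. It was 0.681 to 0.921 by the other scalings, so leaf and root could not be told apart by these. Among the libraries where they were found, flower was 2.84 times stem (1.35 to 6.03) and 4.92 times leaf (1.46 to 26.0) by these factors. By clean reads the ratios were 2.33 (1.11 to 4.95) and 8.78 (2.61 to 46.3). By the sum of miRNA reads flower was 1.11 times stem (0.527 to 2.35) and 3.20 times leaf (0.952 to 16.9), so both intervals held 1. Without the 10 most abundant sequences flower was 1.46 times stem (0.698 to 3.11) and 5.32 times leaf (1.58 to 28.1).

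The share of A at base 9 needs no scaling, because both groups come from 1 library. It was 100% of 23 reads in root, with an exact binomial interval of 85.2% to 100%. In stem it was 50.3% of 27.8 reads (30.6% to 69.4%), in leaf 50% of 6 reads (11.8% to 88.2%) and in flower 23.1% of 25.9 reads (8.97% to 43.6%). The grouping was made after the reads had been seen, so these intervals are no test of a difference between libraries. The split also mostly repeats the 2 main forms. Of the 36.8 reads with G, 31 were of lus-miR169b_R-1, and of the 46 reads with A, 38.4 were of bdi-miR169d_R-1. The leaf share rests on 6 reads. The reads of each group may hold forms that differ at their ends from those printed.

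**Figure D4:**
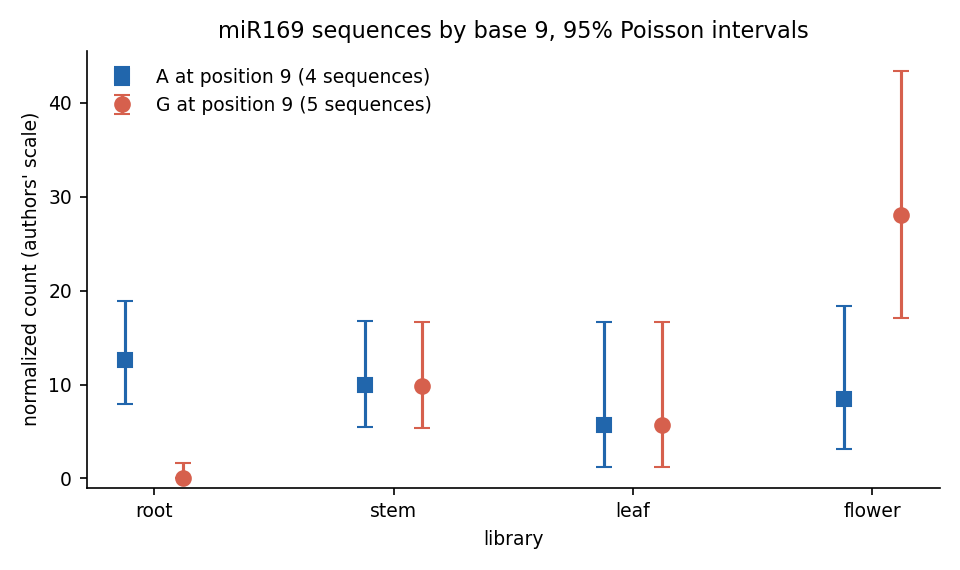
Normalized counts (y axis, on the authors' scale) of the miR169 sequences with A at position 9 (blue squares, 4 sequences) and with G at position 9 (red circles, 5 sequences) in the 4 libraries, with 95% Poisson intervals, or the floor of 3 reads (1.64) for the root count of 0. The forms with G run from 0 in root to 28.1 in flower, and those with A lie between 5.70 and 12.6.

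The 35 miR169 entries carried 23 names and were placed on 35 precursors of 11 species codes, all on the 5′ arm according to the table, and none on a sequence of *S. miltiorrhiza* itself. In 26 entries the sequence was found exactly in the pre-miRNA sequence of the entry, 7 carried a substitution against the reference mature miRNA, and 22 did not begin at its first base. Of the 2 main forms, only lus-miR169b_R-1 is listed with a number of miRBase precursors, 242 of 30 species codes. These were not all searched for its sequence. The form lus-miR169b_R-1 had 2 mismatches to the pre-miRNA sequence of its entry, at positions 12 to 31. The listed hairpin of that entry was 118 nt long. In the flax precursor MIR169b that the same entry names as its representative, of 174 nt, it was found exactly at positions 149 to 168, near the 3′ end, although the table gives the 5′ arm for this entry. The listed hairpins of miR169 were 92 to 186 nt long, with a median of 139 nt, against a median of 118 nt for the 571 other known miRNA entries. Their folding energy ran from −92.6 to −40.5 kcal/mol, with a median of −60.4 against −53.8, and their median G+C content was 48.6%. Entries that share a sequence are placed on several species' precursors, so these are not independent hairpins of *S. miltiorrhiza*.

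Any share of a read was listed for 7 of the 10 sequences in flower, 6 in stem, 4 in root and 3 in leaf. With at least 1 read required, the numbers were 4, 4, 3 and 3. By any share of a read, 2 sequences were found in all 4 libraries, ath-miR394a and bdi-miR169d_R-1, 1 in 3 libraries, 2 in 2 and 5 in 1. Each of these last 5 had under 1 read.

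Other families that are known to pair with F-box mRNAs were compared with miR394. Of miR393, miR394 and miR2111, only the first 2 had at least 10 reads. Both differed between the libraries, as did 91.9% of all families of that depth. By the authors' factors both had the highest level in flower, although for miR394 flower and root could not be told apart and root was highest by the other 3 scalings. miR393, which pairs with the auxin receptor F-box mRNAs TIR1 and AFB, had a normalized count of 1460 for flower, 280 for leaf, 75.04 for stem and 7.11 for root. Its highest level was 205 times its lowest, against 2.73 for miR394. In root miR394 was above miR393, and in leaf and flower it was below. miR2111, which pairs with the F-box mRNA TOO MUCH LOVE in Lotus, had 5 reads.

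Among 12 listed families that pair with mRNAs of transcription factors, as miR169 does, 11 differed between the libraries. The median ratio of the highest to the lowest level over the 12 was 3.72. miR169 had 3.20. By the authors' factors, root had the highest level in 5 of these families, leaf in 4, flower in 2 and stem in 1. Among the families tied to nutrient stress, 6 had at least 10 reads and all 6 differed, with the highest level in leaf in 3 and in flower in 3. These shares stood beside 91.9% of all families of that depth, where flower was highest in 14, root in 10, leaf in 10 and stem in 3.

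The families with the tissue profile most like that of miR394 were miR894, miR5072 and miR6478. Likeness was measured over the 4 libraries as 0.5 times the summed absolute differences between the shares of each profile, where 0 is the same profile, and 36 families were compared. The values were 0.00643, 0.0962 and 0.114, with a median of 0.308 over the 36. miR894 had a normalized count of 13334 for flower, 11656 for root, 5167 for leaf and 4946 for stem, so the same order of root and flower over stem and leaf at a much higher level. For miR169 the nearest were miR482 (0.0805), miR3630 (0.0991) and miR6300 (0.111), with a median of 0.295. The distance between miR394 and miR169 was 0.175.

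No cleavage site was listed for either family in the degradome, which sequences the 5′ ends of cut mRNAs. The degradome table held 82 pairs of a small RNA and a transcript, of 25 small RNA names in 10 families. By name 0 pairs belonged to miR169 or miR394, and 0 had one of the 10 member sequences. Of the 10 families with a pair, 4 had fewer small RNA reads than miR394 and 2 fewer than miR169. The table lists pairs that were called, and no depth at uncalled sites, so the NF-YA and F-box mRNAs were not analysed here and nothing was measured of their cleavage.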

How the data were processed

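The authors trimmed adapters, kept reads of 18 to 25 nt, discarded reads of low quality or of rRNA, tRNA and the like, and matched what remained to miRBase 20.0 and ESTs, using ACGT101-miR version 4.2 per the sample labels. The deposited reads are estimated counts, divided between matching entries. The deposited normalized counts are a signal made by the authors with 1 factor per library (0.547 for root, 0.715 for stem, 1.90 for leaf and 1.41 for flower). The authors also deposited hairpin length (nt), G+C percent and folding energy, used here as a score. The degradome table holds a count of reads per site deposited by the authors (CleaveLand 3.0 and ACGT301-DGE version 1.0). Of the table, 6 lines were not analysed here.

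Samples were grouped by their tissue labels. Reads were summed per distinct sequence and per family. Rounded sums were tested against relative depths (the inverse of the factors) by Pearson's chi-squared test with 3 degrees of freedom, or exactly from the multinomial distribution when any library's expected count was under 5. Adjustment was by Benjamini-Hochberg over the whole table, with a threshold of 0.01. The miRNA reads in the table were 4.43% to 12.2% of the clean reads of a library. Ratios carry exact conditional binomial (Clopper-Pearson) 95% intervals and levels exact Poisson intervals. Named miRNAs were all members, 3 lists of families with at least 10 reads, and the 3 families nearest in profile to each family. The members and lists were chosen with earlier results of these data known. The test was tried on simulated Poisson counts drawn at the depths it uses, with some counts raised (Python 3.11.15, scipy 1.17.1, pandas 2.3.3). Variation between plants and errors in the factors were not simulated. Alternatives were other scalings, tests, adjustment, rounding, units and read minimums.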

Additional observations from a re-analysis of the deposited data

How the results depend on the processing

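The library with the highest level changed with the scaling. For the miR394 family it moved from flower to root by clean reads (adjusted p of 3.19e-34), by the sum of miRNA reads (3.46e-31) and by that sum without the 10 most abundant sequences (1.57e-17), and for its sequence ath-miR394a likewise (7.97e-34, 8.37e-31 and 3.60e-17). For the miR169 family it moved from flower to stem by the sum of miRNA reads (0.117) and by that sum without the 10 most abundant sequences (0.00217). For bdi-miR169d_R-1 it moved from root to stem by clean reads (0.0854) and without the 10 most abundant sequences (0.0475), while by the sum of miRNA reads root stayed highest (0.00696). These scalings give the leaf and flower libraries other relative depths, by construction. The p-values above test whether the 4 libraries differ, not which is highest. By clean reads root was 1.02 times flower for miR394 (0.838 to 1.24). For miR169 stem was 1.06 times flower (0.599 to 1.88) without the 10 most abundant sequences, and 1.40 times (0.792 to 2.49) by the sum of miRNA reads. In these cases the 2 libraries could not be told apart. For lus-miR169b_R-1 the test passed in all 7 alternatives, with p from 1.20e-10 (unadjusted) to 3.60e-05. Only the scalings could change its highest library, and flower stayed highest by each. By the sum of miRNA reads, with or without the 10 most abundant sequences, its flower and stem levels could not be told apart. The other tests, the rounding and the adjustment changed no call of the families. The number of member sequences listed in flower went from 7 to 4 when at least 1 or at least 3 reads were required. No paired analysis was possible because each tissue has 1 library, and for the same reason no replicate could be left out. Of the 9 miR169 forms, 5 had under 1 read.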
